A study of Homo sapiens with 12 samples.

Results

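The replication-dependent histone genes that lie in gene clusters were followed across 4 lines derived from MIA PaCa-2, an established human cell line of pancreatic carcinoma. Members were the rows of the expression table whose symbol named a histone of cluster HIST1, HIST2, HIST3 or HIST4, with names that end as a pseudogene does left out. Among the 63086 genes listed, 83 had such a symbol, 14 of them carried a pseudogene name, and 69 remained. They comprised 6 genes of the linker histone H1 and 15 H2A, 21 H2B, 12 H3 and 15 H4 genes. By cluster, 53 belonged to HIST1 on chromosome 6, 11 to HIST2 and 4 to HIST3 on chromosome 1, and 1 to HIST4 on chromosome 12. The annotation used here called 3 of them pseudogenes, HIST2H2BA, HIST2H2BD and HIST3H2BA. The table listed 4 further clustered genes by identifier only, which were not members (H3C2, H3C3, H2AC18 and H2AC19 in current names).

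RNA of the 4 lines was sequenced in 12 libraries, 3 biological replicates for each line. WT cells had not been manipulated. CRISPR Control cells had passed through the same editing and carried a silent point mutation only, so that both lines are called TIMP1 competent. TIMP1 KO 1 and TIMP1 KO 2, called TIMP1 deficient, were clones in which guide RNAs against different regions of an exon of TIMP1, the gene of the secreted tissue inhibitor of metalloproteinases 1, had been used. Since each edited line came from 1 clone, the lack of TIMP1 and other properties of a clone cannot be told apart. The titles number biological replicates without saying whether cultures were separate, and p-values therefore measure the spread between these samples only.

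Histone proteins package DNA into nucleosomes, in which DNA is wound around H2A, H2B, H3 and H4, while H1 binds the DNA between nucleosomes. Clustered histone genes are transcribed mainly in S phase, when new DNA has to be packaged, and most of their mRNAs end just behind a stem-loop that is bound by the stem-loop binding protein SLBP instead of ending in a poly(A) tail. Several of these genes are also known to give longer, polyadenylated transcripts, mostly in cells that have stopped dividing.

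The stem-loop is the element that sets these genes apart from other mRNAs, and it is shown first. A motif of 16 bases was searched on the gene's own strand in the 150 bases behind the stop codon of each coding gene (GENCODE release 44, GRCh38). It begins with GG and ends with CC, has CTT at bases 5 to 7, T at base 9 and AG at bases 11 and 12, and leaves the other bases free. It was found in 66 of the 66 members with an annotated stop codon, beginning 22 to 62 bases behind the stop codon (median 35). Of 19853 other coding genes 7 held it, 0.0353%. The other genes can include histone genes outside the rule, such as the 4 listed by identifier only, and the 7 were not identified. The 66 copies had 10 different sequences. The 6 forms that include every gene with a tested level follow 5′ to 3′, with the 4 bases of the loop in capitals.
Form in 36 genes, among them HIST1H2AC and HIST1H1C: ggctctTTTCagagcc
Form in 10 genes that differs in the stem: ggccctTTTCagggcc
Form in 10 genes that differs in the loop: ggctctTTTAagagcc
Form in 4 genes that differs in both: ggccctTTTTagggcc
Form in HIST1H3E only: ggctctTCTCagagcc
Form in HIST1H2AG only: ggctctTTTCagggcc
The copy of HIST1H2AC lay at chr6:26124669-26124684 on the plus strand and that of HIST1H3E at chr6:26225596-26225611 on the plus strand. The copy of HIST1H2AG (chr6:27133515-27133530, plus strand) has stem arms that do not mirror each other at each base. Of the 36 genes with the first form 11 reached the level needed for a test (a mean of at least 10 normalised counts over the 12 libraries), and of the 10 genes with the TTTA loop 5 did.

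Annotated transcripts reached well beyond the stem-loop in some members. In 17 of the 66 genes an annotated transcript held more than 100 bases of exon sequence past the stem-loop, and 14 of these 17 genes reached the level for a test. Of the 49 genes without such a form 7 did. The level is a count not divided by length, and a gene with more annotated exon sequence can collect more reads. Per kilobase of annotated exon the tested gene HIST3H2BB had 2.92 normalised counts, and HIST2H2AC, which was not tested, had 17.7. How much of the difference between 14 of 17 and 7 of 49 came from exon length was not tested. Among the 14 genes the longest annotated stretch ran from 375 bases in HIST1H2BD to 4551 bases in HIST3H2BB, with 1128 bases in HIST1H2AC and 1729 bases in HIST2H2BE. The 7 tested genes whose annotation ended at the stem-loop were HIST1H1C, HIST1H2AG, HIST1H2AE, HIST1H2AI, HIST1H2BK, HIST1H2BG and HIST1H2BF. The values are counts per gene, and which form a read came from was not tested. Whether the libraries were selected on poly(A) tails is not given in the sources used here. If they were, mRNAs that end at the stem-loop would be counted less than they occur, and the values would reflect mainly polyadenylated forms.

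Many H2A and H2B genes are read in opposite directions from a shared stretch of DNA. There were 13 pairs of members read in opposite directions from start sites at most 1000 bases apart, taking up 26 members, of which all but HIST1H3F with HIST1H2BH joined an H2A to an H2B gene. The regions between the start sites of the 3 pairs that hold HIST1H2BK, HIST1H2AC and HIST2H2BE are printed because both genes of a pair share this sequence, while their levels, given further down, differed. They are on the plus strand of GRCh38. Capitals mark the letters of 3 motifs. The CCAAT box appears as ATTGG where it lies on the minus strand. The TATA box, searched as TATAAA, appears as TTTATA where it lies on the minus strand. The octamer, searched as ATTTGCAT, lies on the minus strand in each of these regions and therefore appears as ATGCAAAT. The first gene of each pair is read leftwards and the second rightwards.
HIST1H2BK and HIST1H2AH, chr6:27146856-27147105, 250 bases: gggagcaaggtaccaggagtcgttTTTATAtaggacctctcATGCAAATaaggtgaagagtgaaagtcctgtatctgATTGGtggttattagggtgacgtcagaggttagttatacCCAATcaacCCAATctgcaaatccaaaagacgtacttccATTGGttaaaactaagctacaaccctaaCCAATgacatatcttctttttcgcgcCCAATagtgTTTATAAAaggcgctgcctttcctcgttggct
HIST1H2BC and HIST1H2AC, chr6:26123927-26124171, 245 bases: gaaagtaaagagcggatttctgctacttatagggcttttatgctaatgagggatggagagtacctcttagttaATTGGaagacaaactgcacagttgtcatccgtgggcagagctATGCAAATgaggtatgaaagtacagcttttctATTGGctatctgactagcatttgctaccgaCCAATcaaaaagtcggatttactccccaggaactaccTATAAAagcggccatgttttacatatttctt
HIST2H2BE and HIST2H2AC, chr1:149886683-149886917, 235 bases: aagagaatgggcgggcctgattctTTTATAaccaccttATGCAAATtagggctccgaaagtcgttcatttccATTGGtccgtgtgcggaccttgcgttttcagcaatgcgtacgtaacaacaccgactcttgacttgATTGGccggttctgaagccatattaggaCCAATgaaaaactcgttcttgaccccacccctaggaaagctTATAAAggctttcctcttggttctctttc
The region of HIST1H2BK held 4 CCAAT boxes on the plus strand and 2 on the minus strand. In its run TTTATAAA the TATA letters of both strands overlap, and both were counted.

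The same letters were counted in the RefSeq promoters of GRCh38.p14, which hold 250 bases before and 50 after the start of a gene. Of the 69 genes 61 had a promoter in that collection. CCAAT on either strand was in 83.6% of the 61 promoters against 39.7% of the promoters of all 27305 genes. TATAAA on the gene's strand was in 57.4% against 8.99%, and ATTTGCAT on either strand in 42.6% against 2.19%. Between tested and untested members the shares lay closer to each other, at 85.7% and 82.5% for CCAAT, 52.4% and 60% for TATAAA and 47.6% and 40% for ATTTGCAT. A match of letters is a description of the sequence and does not show that a factor bound there.

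The libraries held 26908701 to 36093563 reads in genes, of which 2225 to 11852 fell on the 69 members. Levels are given as normalised counts, which are read counts divided by a size factor of the library. TIMP1 itself ranged over 3290 to 3837 normalised counts for WT, 2285 to 2959 for CRISPR Control, 1562 to 1624 in TIMP1 KO 1 and 1136 to 1192 in TIMP1 KO 2, so that its mRNA was lower but present in the clones. Of 6 markers of the carcinoma line KRT8, KRT18, KRT19, VIM and EPCAM had at least 1199 normalised counts in each library. Between deficient and competent lines 4 of the 6 were higher and 2 lower (limma, adjusted p below 0.05). Of all tested genes 32.9% were higher and 33% lower. The changes of the 6 markers ran from -3.65 to 2.09 on the log2 scale. The epithelial cadherin CDH1 fell in the clones, with means of 1189 in WT, 1424 in CRISPR Control, 128 in TIMP1 KO 1 and 84.9 in TIMP1 KO 2 (-3.65 on the log2 scale for deficient against competent lines, limma adjusted p = 6.6e-16), and its part in the results was not tested. Of the markers of other cells, 9 of 10 for blood, endothelial, acinar and stromal cells stayed at or below 17.2. The exception was PDGFRB with 8.57 to 64.8.

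The clustered histone genes as a group took up more of the reads in the deficient lines. Per 1000000 reads in genes they held 78.7, 82.6 and 82.2 reads in the WT libraries and 74.6, 87.0 and 79.0 in the CRISPR Control libraries. TIMP1 KO 1 libraries had 142, 156 and 144 such reads, and TIMP1 KO 2 libraries 335, 353 and 318. The means were 81.2 ± 2.16, 80.2 ± 6.29, 147 ± 8.03 and 335 ± 17.5 (SD, n = 3 each). WT and CRISPR Control libraries overlapped, TIMP1 KO 1 lay above both and TIMP1 KO 2 lay above all other libraries. Relative to WT the mean was 0.988 times in CRISPR Control, 1.81 times in TIMP1 KO 1 and 4.13 times in TIMP1 KO 2. Without HIST1H2BK, which had the most reads, these ratios became 1.01, 2.11 and 5.31. In bulk RNA more cells that transcribe a gene and more of its RNA per cell cannot be told apart.

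**Figure D1:**
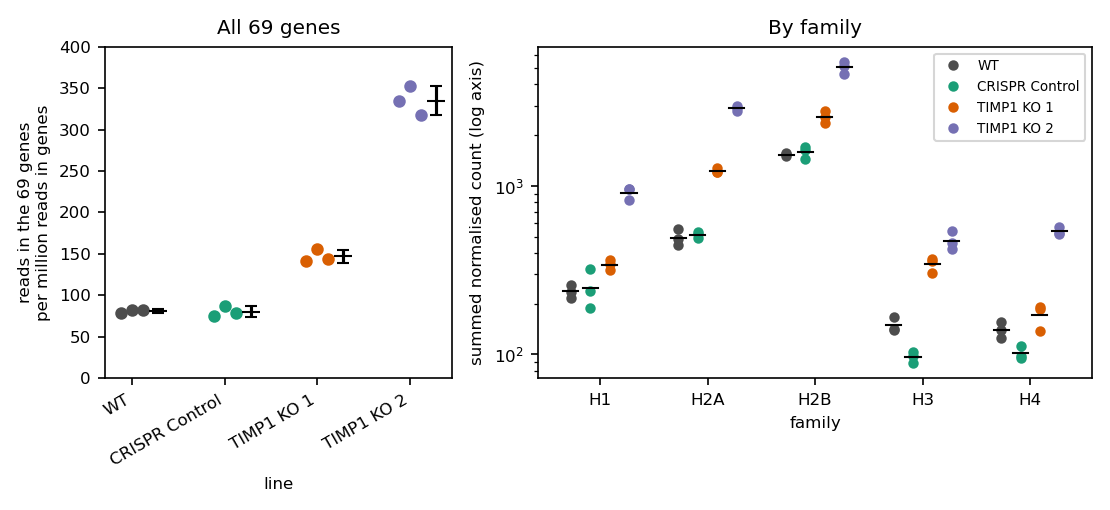
Left, reads in the 69 genes per 1000000 reads in genes for each library (points), with the mean and SD of each line (bars, n = 3). Right, the summed normalised count of each family (log axis) by library, with lines at the means. TIMP1 KO 2 libraries lie highest in all 5 families, and the H3 and H4 sums of CRISPR Control lie below those of WT.

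The sums differed between families. In normalised counts the H2A sum was 494 ± 54.6 in WT, 515 ± 23.6 in CRISPR Control, 1232 ± 37.7 in TIMP1 KO 1 and 2891 ± 85.4 in TIMP1 KO 2 (SD, n = 3), 5.85 times the WT mean in the last. The H2B sum, to which HIST1H2BK gave the most counts, stood at 3.30 times the WT mean in TIMP1 KO 2. H1 stood at 3.85 times, H4 at 3.85 times and H3 at 3.18 times. In TIMP1 KO 1 the H2A and H3 sums were 2.49 and 2.31 times WT, while H4 was 1.23 times WT with libraries that overlapped the WT range. CRISPR Control had an H3 sum of 96.6 ± 7.34 against 149 ± 14.4 in WT, without overlap, and an H4 sum of 102 ± 9.14 against 140 ± 15.4. The make-up of the group moved too, as HIST1H2BK held 40.8% of the members' counts in WT and 23.9% in TIMP1 KO 2, whereas HIST1H2AC held 12.1% and 22.4%.

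Of the 69 members 21 reached a mean of 10 normalised counts and were tested with limma among 15987 genes. The other 48 stayed under it, 19 of them with at most 3 reads in each library, including 9 without a read in any library. All 21 tested members were higher in the deficient than in the competent lines and none was lower (limma, adjusted p below 0.05 over all tested genes), where 32.9% of all tested genes were higher and 33% lower. Their median log2 fold change was 1.49, against 0.00 for all tested genes, and single genes ran from 0.85 (HIST1H2BK) to 2.48 (HIST1H2BC). In 13 of the 21 members all 6 deficient libraries lay above all 6 competent ones, as they did in 12.3% of all tested genes. Selection by the mean has to be kept in view, because 7 members passed it only through the deficient lines (HIST1H2BC, HIST1H2AI, HIST3H2BB, HIST4H4, HIST1H2BG, HIST1H2BE and HIST1H2BF). The other 14 had a mean of at least 10 in the competent lines as well. A further member, HIST2H2AC, had a mean of 11.9 in the competent lines and 5.55 in the deficient lines and missed the minimum through the latter, and it is described with its neighbour HIST2H2BE further down.

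**Figure D2:**
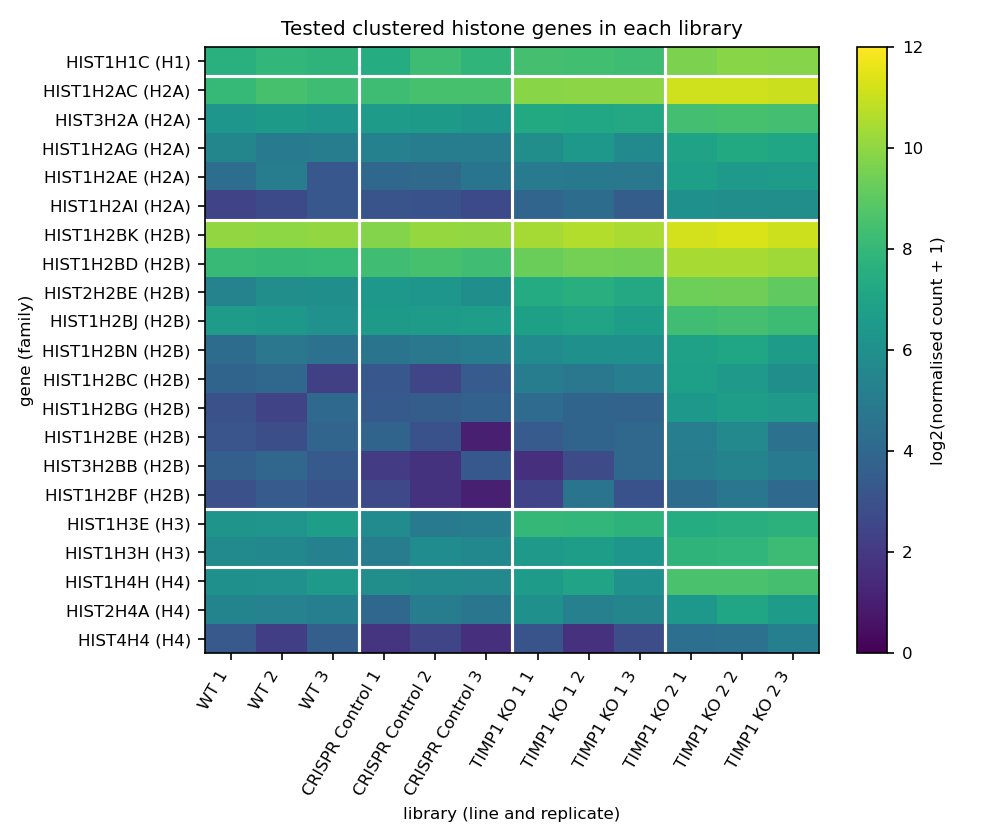
Level of the 21 tested genes in each of the 12 libraries as log2(normalised count + 1), by colour, with genes in rows by family and libraries in columns by line. The 3 columns of TIMP1 KO 2 are the brightest in 20 of the 21 rows by line mean, with HIST1H3E as the exception.

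Linker histone H1 was represented by HIST1H1C (H1-2 in current names, chr6:26055740-26056470, minus strand), the only H1 gene tested. It had 194, 243 and 219 normalised counts in WT and 171, 305 and 227 in CRISPR Control. TIMP1 KO 1 had 351, 330 and 312, and TIMP1 KO 2 had 796, 929 and 916. All deficient libraries lay above all competent ones, and the competent lines overlapped. Deficient lines exceeded competent ones by 1.27 ± 0.11 on the log2 scale (SE, limma, adjusted p = 7.53e-09). It reached 2.01 in TIMP1 KO 2 and 0.60 in TIMP1 KO 1 against WT. The other 5 H1 genes stayed under the minimum, HIST1H1E being the highest with means of 9.39 in WT and 17.2 in TIMP1 KO 2.

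Among the H2A genes HIST1H2AC (H2AC6) had the highest counts. WT libraries held 259, 358 and 311 normalised counts and CRISPR Control libraries 307, 366 and 360. In TIMP1 KO 1 there were 935, 979 and 949 and in TIMP1 KO 2 there were 2249, 2267 and 2134. Competent, TIMP1 KO 1 and TIMP1 KO 2 libraries formed levels that did not overlap, and within each deficient line the libraries lay close together. Its log2 fold change was 2.16 ± 0.08 (SE) between deficient and competent lines (limma, adjusted p = 1.12e-14), 1.63 for TIMP1 KO 1 and 2.85 for TIMP1 KO 2 against WT.

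HIST3H2A (H2AC25), a gene of the small cluster on chromosome 1, went from 79.2, 90.9 and 79.1 normalised counts in WT and 95.9, 91.3 and 81.3 in CRISPR Control to 153, 144 and 151 in TIMP1 KO 1 and 335, 359 and 342 in TIMP1 KO 2. Deficient and competent libraries did not overlap, and the difference of 1.39 ± 0.09 on the log2 scale (SE) was the lowest of the tested H2A genes (limma, adjusted p = 1.61e-10). HIST1H2AI had fewer counts, with 4.53 to 8.57 in the competent libraries, 14.0, 18 and 10.6 in TIMP1 KO 1 and 63.8, 60.5 and 60.5 in TIMP1 KO 2. Its TIMP1 KO 2 libraries stood far above all others, and its log2 fold change against WT was 3.16 ± 0.34 (SE, limma, adjusted p = 2.37e-07). HIST1H2AI passed the minimum mean only through the deficient lines. HIST1H2AG and HIST1H2AE changed by 1.43 and 1.49 between deficient and competent lines. HIST1H2AE did not pass the threshold for TIMP1 KO 1 against WT (0.66 ± 0.34 (SE), limma adjusted p = 0.141).

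HIST1H2BK (H2BC12, chr6:27146361-27146855, minus strand) had the highest level of all members per kilobase of exon, at a mean of 2961 normalised counts per kilobase over the 12 libraries, followed by HIST1H2BD at 760, HIST1H2AC at 573 and HIST1H1C at 569. The length used was that of all annotated exons, 495 bases in HIST1H2BK and 1668 in HIST1H2AC. These levels therefore depend on which forms are annotated. The normalised counts of HIST1H2BK were 1075, 1001 and 1052 in WT and 871, 1096 and 1074 in CRISPR Control. TIMP1 KO 1 had 1319, 1583 and 1441 and TIMP1 KO 2 had 2343, 2545 and 2191. All deficient libraries exceeded all competent ones, but the log2 fold change of 0.85 ± 0.07 (SE) was the lowest of the 21 members (limma, adjusted p = 2.22e-09). HIST1H2BD (H2BC5) moved more, from 279.6, 255 and 261 in WT to 638, 721 and 696 in TIMP1 KO 1 and 1376, 1378 and 1252 in TIMP1 KO 2. It was also slightly higher in CRISPR Control, with 314, 365 and 314, than in WT, without overlap.

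HIST2H2BE (H2BC21, chr1:149884459-149886682, minus strand) showed the greatest change of any member against WT. It had 39.6, 60 and 61.9 normalised counts in WT and 84.6, 77.1 and 62.6 in CRISPR Control. TIMP1 KO 1 held 167, 190.2 and 152 and TIMP1 KO 2 held 657, 666 and 540. Each line lay above the one before it, with the narrowest gap between WT and CRISPR Control. Against WT its log2 fold change was 3.52 ± 0.18 (SE) in TIMP1 KO 2 (limma, adjusted p = 6.62e-12), an 11.5-fold difference in mean counts, and 1.66 ± 0.18 in TIMP1 KO 1 (adjusted p = 5.42e-07).

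HIST1H2BC (H2BC4) had the highest difference between deficient and competent lines, 2.48 ± 0.29 (SE, limma, adjusted p = 3.94e-07). Its counts were low in the competent lines, with 13.6, 15.5 and 3.81 in WT and 8.64, 4.74 and 9.89 in CRISPR Control. Counts were 32.4, 27.0 and 34.5 in TIMP1 KO 1 and 110.2, 88.6 and 61.5 in TIMP1 KO 2. Deficient and competent libraries did not overlap, nor did the clones, while WT and CRISPR Control did. The gene passed the minimum mean only through the deficient lines. Its gene span overlaps HFE and HIST1H4C on the other strand and HIST1H1T on the same strand. Whether their exons overlap was not compared, so it is not known whether reads of these genes were shared. HIST1H2BG had 6.79, 4.55 and 16.2 normalised counts in WT and 17.3, 13.5 and 13.3 in TIMP1 KO 1, which overlapped. Its TIMP1 KO 2 libraries, with 82.0, 103 and 85.8, stood clear of all others. HIST1H2BG too passed the minimum mean only through the deficient lines.

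The remaining H2B genes differed in how evenly the deficient lines moved. HIST1H2BN rose by 1.44 in TIMP1 KO 1 and 2.37 in TIMP1 KO 2 against WT on the log2 scale, and HIST1H2BJ by 0.49 and 1.99, the first of which was lost without replicate 3 of WT or replicate 2 of TIMP1 KO 1. HIST1H2BE passed the threshold against WT only in TIMP1 KO 2 (1.79 ± 0.55 (SE), limma adjusted p = 0.0102), a call that was lost without replicate 2 of TIMP1 KO 2, and its clones did not differ past the threshold (adjusted p = 0.0606). HIST3H2BB had 11.3, 14.5 and 9.53 normalised counts in WT, 2.16, 5.63 and 15 in TIMP1 KO 1 and 33.1, 40.3 and 29.3 in TIMP1 KO 2. In HIST3H2BB the difference between deficient and competent lines (0.93 ± 0.37 (SE), limma adjusted p = 0.0321) rested on TIMP1 KO 2, and it was lost when any 1 of 7 libraries was left out (replicates 1 or 3 of WT, 1 or 2 of CRISPR Control, 3 of TIMP1 KO 1, 1 or 2 of TIMP1 KO 2), with adjusted p up to 0.117. HIST1H2BF did not pass the threshold against WT in either clone with limma, and with edgeR it passed in TIMP1 KO 2 (log2 fold change 1.28). HIST1H2BE, HIST3H2BB and HIST1H2BF passed the minimum mean only through the deficient lines.

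Only 2 H3 genes were tested, and they differed in which clone was higher. HIST1H3E (H3C6, chr6:26224199-26227473, plus strand) had 72.4, 75.5 and 101 normalised counts in WT and 54.4, 29.7 and 33.0 in CRISPR Control. TIMP1 KO 1 had 257, 246 and 212 and TIMP1 KO 2 had 174, 191 and 209. All TIMP1 KO 1 libraries lay above the TIMP1 KO 2 libraries, the reverse of the order in the other 20 members by line mean. The difference between the clones did not pass the threshold (log2 fold change -0.32, 95% interval -0.74 to 0.11, limma adjusted p = 0.231). Against WT the gene was higher in both clones, by 1.52 and 1.21. HIST1H3H (H3C10) followed the common order, with 50.9, 47.3 and 37.1 in WT, 85.3, 101 and 77.7 in TIMP1 KO 1 and 219.5, 241 and 301 in TIMP1 KO 2. These groups did not overlap, and TIMP1 KO 2 differed from WT by 2.47 ± 0.21 (SE, limma, adjusted p = 1.08e-08).

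Against WT 3 of 3 tested H4 genes were higher in TIMP1 KO 2 and 0 of 3 in TIMP1 KO 1, where 27.1% and 18% of all tested genes were. By the test between the clones all 3 were higher in TIMP1 KO 2 than in TIMP1 KO 1, where 18.1% of all tested genes were. Of the 3, HIST4H4 passed the minimum only through the deficient lines. HIST1H4H (H4C8) had 64.5, 67.3 and 87.6 normalised counts in WT and 59.6, 53.4 and 49.5 in CRISPR Control. TIMP1 KO 1 had 96.2, 128 and 66.3 and TIMP1 KO 2 had 376, 370.0 and 350.1. TIMP1 KO 1 overlapped WT (log2 fold change 0.36 ± 0.20 (SE), limma adjusted p = 0.168), and TIMP1 KO 2 exceeded TIMP1 KO 1 by 1.95 ± 0.20 (SE, adjusted p = 3.21e-07). HIST2H4A (H4C14) had 41.9, 39.1 and 35.2 in WT, 63.7, 36.0 and 43.3 in TIMP1 KO 1 and 82.0, 132 and 98.9 in TIMP1 KO 2. Its values are uncertain, because HIST2H4B is a near-identical copy with which reads may be shared. HIST4H4, the only HIST4 gene, had 2.20 to 11.4 normalised counts in the competent libraries, 2.25 to 7.56 in TIMP1 KO 1 and 19.9, 21.9 and 35.3 in TIMP1 KO 2. For HIST4H4 the difference of TIMP1 KO 2 from WT (1.64 ± 0.51 (SE), limma adjusted p = 0.0104) was lost without replicate 2 of WT or replicate 3 of TIMP1 KO 2.

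Clustered histone genes did not move together between the competent lines. In CRISPR Control against WT 2 of the 21 members were higher and 4 lower (limma, adjusted p below 0.05), where 27.2% and 26.3% of all tested genes were, and the median log2 fold change was -0.01. The higher genes were HIST2H2BE (0.48) and HIST1H2BD (0.32), the lower ones HIST1H2BF (-1.36), HIST3H2BB (-1.26), HIST1H3E (-1.10) and HIST2H4A (-0.69). The change of HIST1H3E was 0.465-fold with an adjusted p of 0.000147 (limma). The calls of HIST2H4A, HIST1H2BF and HIST3H2BB were each lost with edgeR, with DESeq2, with no minimum and without any single WT library. That of HIST2H2BE was lost with edgeR and without replicate 1 of WT (0.28) or replicate 1 or 2 of CRISPR Control. All 4 of these calls were lost with only the compared lines in the fit. Those of HIST2H2BE and HIST2H4A also fell short of a log2 fold change of at least 1 in size. That of HIST1H3E held under all alternatives run. That of HIST1H2BD held under all but a log2 fold change of at least 1, since its change was 0.32.

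Each clone was compared with WT, and these comparisons share the WT libraries. In TIMP1 KO 1 13 of the 21 members were higher and 0 lower (limma, adjusted p below 0.05), where 18% and 17.5% of all tested genes were, and in 13 members all its libraries exceeded all WT libraries, where 26.2% of all genes did so. In TIMP1 KO 2 20 were higher and 0 lower, where 27.1% and 27.9% of all tested genes were, and in 21 all libraries lay above WT, where 30.9% of all genes did so. The median log2 fold changes were 0.78 and 2.04. Against CRISPR Control 15 members were higher and 0 lower in TIMP1 KO 1 (31.7% and 31.3% of all tested genes). In TIMP1 KO 2 21 were higher and 0 lower (33.3% and 34.4%), with medians of 0.94 and 2.45. The counts and medians of members for both clones include the 7 members that passed the minimum only through the deficient lines. For these 7 the minimum itself favours higher values in the clones. TIMP1 KO 1 against WT and TIMP1 KO 2 against CRISPR Control have no library in common, and each of these gave higher members only, 13 and 21. They are not independent, since each gene's spread and the minimum mean were taken from all 12 libraries. With libraries scaled to equal totals the share of all calls against WT that were higher in TIMP1 KO 2 moved from 49.3% to 59.9%, while its members remained at 20 higher and 0 lower.

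**Figure D3:**
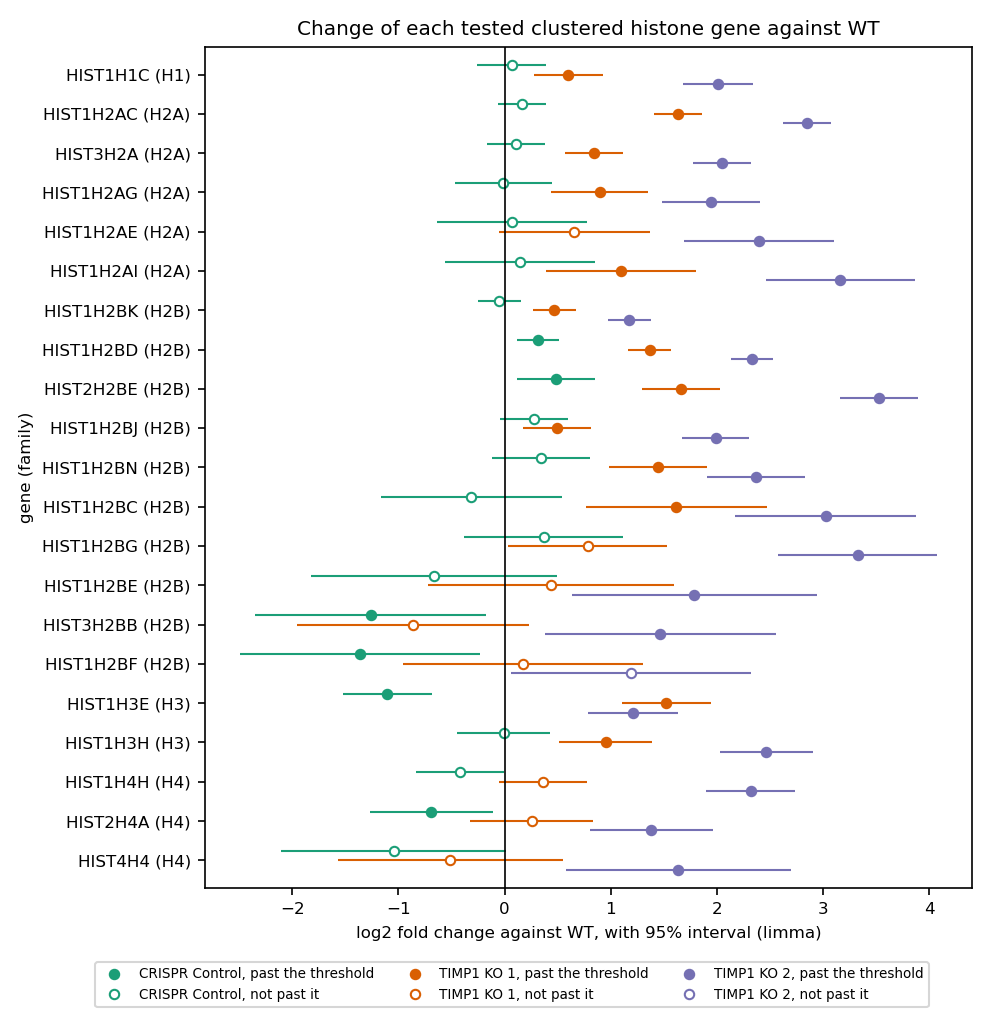
Log2 fold change against WT with its 95% interval (limma) of the 21 tested genes in CRISPR Control, TIMP1 KO 1 and TIMP1 KO 2, with filled points past the adjusted threshold and open points not past it. In 20 of the 21 genes TIMP1 KO 2 lies to the right of TIMP1 KO 1, and CRISPR Control lies on both sides of 0.

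The clones differed from each other in the size of the change. TIMP1 KO 2 exceeded TIMP1 KO 1 in 18 of the 21 members and was lower in 0 (limma, adjusted p below 0.05), where 18.1% and 20.1% of all tested genes were, and the median log2 fold change was 1.41. In 19 members all TIMP1 KO 2 libraries lay above all TIMP1 KO 1 libraries, where 25.1% of all genes did so. The highest difference was that of HIST1H2BG (2.54 ± 0.36 (SE), limma adjusted p = 1.59e-05). HIST1H2BG, HIST3H2BB, HIST4H4 and HIST1H2AI, which had the 4 highest differences, and HIST1H2BC passed the minimum only through the deficient lines, and among the members with a mean of at least 10 in the competent lines too the highest difference was that of HIST1H4H (1.95). The 3 members that did not pass were HIST1H2BE, HIST1H2BF and HIST1H3E. The line mean of TIMP1 KO 1 lay between those of WT and TIMP1 KO 2 in 18 of the 21 members. With equal library totals 19 members were higher, and the share of all calls that were higher moved from 47.4% to 65.5%.

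The medians of genes with and without an annotated long form lay close together, and their difference was not tested. Between deficient and competent lines the median log2 fold change was 1.62 in the 14 tested genes with such a form and 1.43 in the 7 without. For TIMP1 KO 2 against WT the medians were 2.18 and 2.01, and for TIMP1 KO 1 they were 0.90 and 0.66. Both sets hold genes that passed the minimum only through the deficient lines. These were HIST1H2BC, HIST3H2BB, HIST4H4 and HIST1H2BE with such a form and HIST1H2AI, HIST1H2BG and HIST1H2BF without. The 6 genes listed as known to give polyadenylated transcripts (HIST1H1C, HIST1H2AC, HIST1H2BC, HIST1H2BD, HIST1H2BK and HIST2H2BE) were all higher, with a median of 1.92. Of all tested genes 32.9% were higher. HIST1H2BC passed the minimum only through the deficient lines. HIST1H1C and HIST1H2BK are among the 7 genes without an annotated long form, so the annotation does not separate genes by the forms they are known to give. The list includes both the highest and the lowest change of the 21 members.

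Genes that share a promoter region did not have equal levels. In the pair of HIST1H2BC and HIST1H2AC both genes rose in both clones against WT, by 1.61 and 1.63 in TIMP1 KO 1 and by 3.03 and 2.85 in TIMP1 KO 2 on the log2 scale. In the pair of HIST1H2BG and HIST1H2AE the changes in TIMP1 KO 2 were 3.32 and 2.40, and in that of HIST1H2BJ and HIST1H2AG they were 1.99 and 1.94. Of these genes HIST1H2BC and HIST1H2BG passed the minimum only through the deficient lines. In 5 pairs only 1 gene reached the minimum. Across from HIST1H2BK lay HIST1H2AH, with 7.92, 6.36 and 0.953 normalised counts in WT and 2.49, 0 and 1.01 in TIMP1 KO 2. Across from HIST2H2BE lay HIST2H2AC, which had 9.05, 20.9 and 19.1 in WT, 11.2, 3.56 and 7.69 in CRISPR Control, 6.48, 4.5 and 7.95 in TIMP1 KO 1 and 3.31, 7.01 and 4.04 in TIMP1 KO 2. HIST2H2AC was thus lower in each TIMP1 KO 2 library than in any WT library, while HIST2H2BE, whose start site lies 236 bases away, was higher. The TIMP1 KO 2 libraries of HIST2H2AC overlapped those of CRISPR Control, and the gene was chosen after its values were seen. In a fit with no minimum HIST2H2AC changed by -1.56 ± 0.54 (SE, limma, adjusted p = 0.0400) in TIMP1 KO 2 against WT, and between deficient and competent lines its change of -0.84 did not pass (adjusted p = 0.108).

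The 48 members under the minimum had summed normalised counts of 122 ± 14.8 in WT, 89.7 ± 11 in CRISPR Control, 85.8 ± 10.4 in TIMP1 KO 1 and 187 ± 10.4 in TIMP1 KO 2 (SD, n = 3). By mean, 24 of them were above WT in TIMP1 KO 2, 15 were below and 9 were at 0 in both. When each gene with a read was tested (35235 genes, among them 39 of the 48), 5 were higher and 0 lower between deficient and competent lines (limma, adjusted p below 0.05), where 16.6% and 16.1% of all genes in that fit were. These were HIST1H1T, HIST1H4J, HIST1H2BO, HIST1H4E and HIST1H2AM. For TIMP1 KO 2 against WT 6 were higher and 2 lower (13.7% and 12.1% of all genes in that fit), the latter being HIST2H2AC and HIST1H2BI. For TIMP1 KO 1 against WT, where 7.41% of all genes were higher and 7.4% lower, none of the 39 was called. HIST1H4E, one of the 5, had 2.26, 4.55 and 2.86 in WT and 14.9, 23.7 and 14.1 in TIMP1 KO 2, without overlap. HIST1H1T lies within the gene span of HIST1H2BC on the same strand. Its counts may be shared with that gene if their exons overlap, which was not compared. At a few reads per library a difference in most of these genes was not detectable.

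Replacement histones can be made outside S phase, mostly from genes that lie alone and whose mRNAs are polyadenylated, although H2AFX also gives a stem-loop-ended mRNA. Of the 12 tested 2 were higher and 8 lower in the deficient lines (limma, adjusted p below 0.05), against 32.9% and 33% of all tested genes, with a median log2 fold change of -0.47. H2AFJ (H2AJ) was higher by 0.56. The DNA damage variant H2AFX changed by -0.81, H2AFZ by -0.49, H3F3B by -0.45 and the centromere variant CENPA by -0.62. The lowest value was that of H2AFY2 (MACROH2A2), -1.84.

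Factors that make and process histone mRNA were more often lower than higher. Of 20 tested genes of histone transcription and stem-loop processing 4 were higher and 11 lower in the deficient lines, where 32.9% and 33% of all tested genes were, with a median log2 fold change of -0.18. The same shares of all genes apply to the other lists of this paragraph. SLBP changed by -0.36 ± 0.05 (SE, limma, adjusted p = 1.16e-05), and NPAT, which activates histone genes, by -0.06 (adjusted p = 0.495). The values ran from -0.86 for LSM11, a subunit of the U7 particle, to 0.71 for ZCCHC6 (TUT7), which adds uridines to histone mRNA. Of 15 factors of ordinary cleavage and polyadenylation 1 was higher (CSTF1, 0.15) and 9 lower (lowest CPSF7, -0.64). Among 22 histone chaperones, which carry histones to DNA, 3 were higher and 14 lower, from -0.90 for the FACT subunit SSRP1 to 0.63 for ATRX.

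Markers of S phase changed in the opposite direction to the clustered histone genes. All 14 tested S-phase genes were lower in the deficient lines (limma, adjusted p below 0.05), where 33% of all tested genes were, with a median log2 fold change of -0.77. They ranged from -1.05 for CDC6, which licenses replication origins, to -0.51 for PCNA, the sliding clamp of the polymerases. In TIMP1 KO 1 against WT 13 of 14 were lower (median -0.51, with 17.5% of all tested genes lower) and in TIMP1 KO 2 14 of 14 (median -1.07, with 27.9%). The part of the cell cycle in the levels of the histone genes was not tested.

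Genes between the members on chromosome 6 were listed as well. Of 84 such neighbours 27 were tested, and 12 were higher and 5 lower in the deficient lines (32.9% and 33% of all tested genes), with a median log2 fold change of 0.44 against 1.49 in the histone genes. The neighbours include H3C2, a clustered histone gene that the files list by its identifier ENSG00000286522.2 only and that was among the 12 (0.88). The butyrophilins BTN3A1 and BTN3A2 rose by 1.79 and 1.85, and HFE, which regulates iron uptake, by 0.83. The values ran from -0.90 (POM121L2) to 2.96 (AL031777.3, whose gene span overlaps HIST1H2AD and HIST1H3D on the same strand). AL031777.3 passed the minimum only through the deficient lines, with means of 3.48 in WT, 5.52 in CRISPR Control, 17.7 in TIMP1 KO 1 and 90.9 in TIMP1 KO 2. POM121L2 passed it only through the competent lines (14.8, 17.0, 7.58 and 7.87 in the same order). By gene span 11 of the 21 tested members overlapped another annotated gene, 5 of them on the other strand, and exons were not compared. The strand setting of the counting is not given in the sources used here.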

How the data were processed

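RNA was sequenced in 12 libraries (kit-prepared, Novogene). The authors trimmed reads with Cutadapt, aligned them to GRCh38 (STAR), used featureCounts for gene counts and scaled these by DESeq2 size factors, and the deposited values are this signal. Strand setting, annotation release and mRNA selection are not given in the sources used here. Dividing by each library's step returned whole reads for 100% of values (tolerance 0.01 reads), which gave the depth and the reads for edgeR and DESeq2. The 4 columns of line means and 1 row without a gene were not used.

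R 4.3.3 and limma 3.58.1 were used for the main test on log2(normalised count + 1), with 1 fit of 4 line means over 12 libraries, eBayes with trend, two-sided tests and Benjamini-Hochberg adjustment at 0.05, over 15987 genes with a mean of at least 10. Fold changes on this scale understate changes of low genes. The scripts were tested on simulated data. No replicate pair of a line agreed within sampling noise, so each library counted once. Replicate numbers did not pair the libraries. Members and lists were chosen with earlier results of these data known. Values are given in each library for the 2 members with most counts in each family, those with the highest and lowest change between deficient and competent lines in each family, and those with the highest and lowest change for CRISPR Control against WT and for TIMP1 KO 2 against TIMP1 KO 1, and others among the tested members are named. HIST2H2AC, HIST1H2AH and HIST1H4E were chosen after their values were seen. Other lists name their highest and lowest changes past the threshold and further genes chosen by role, and BTN3A1, BTN3A2 and HFE were added after their values were seen. A further gene of these lists is not reported here. The alternatives were pseudocounts of 0.5 and 10, minimum means of 50 or none, other scalings, limma without trend, edgeR 4.0.16, DESeq2 1.42.0, a replicate block, a log2 fold change of at least 1, fewer lines per fit and leaving out each library. Promoter and stem-loop sequences were from RefSeq and GRCh38.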

Additional observations from a re-analysis of the deposited data

Results flagged for a closer look

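A total of 18 members were picked out because their change differed between the 2 knockout clones by a direct test of TIMP1 KO 2 against TIMP1 KO 1 (limma, adjusted p below 0.05), and in all 18 TIMP1 KO 2 was higher. The log2 difference between the clones was 1.41 in the H1 gene HIST1H1C. In the H2A genes it was 2.07 for HIST1H2AI, 1.74 for HIST1H2AE, 1.22 for HIST1H2AC, 1.20 for HIST3H2A and 1.05 for HIST1H2AG. In the H2B genes it was 2.54 for HIST1H2BG, 2.33 for HIST3H2BB, 1.86 for HIST2H2BE, 1.5 for HIST1H2BJ, 1.41 for HIST1H2BC, 0.96 for HIST1H2BD, 0.92 for HIST1H2BN and 0.71 for HIST1H2BK. The H3 gene HIST1H3H differed by 1.51. The H4 genes differed by 2.15 for HIST4H4, 1.95 for HIST1H4H and 1.12 for HIST2H4A. Of all tested genes 18.1% were higher in TIMP1 KO 2 than in TIMP1 KO 1 by the same rule. Of the 18, HIST1H2BG, HIST3H2BB, HIST4H4, HIST1H2AI and HIST1H2BC reached the minimum mean only through the deficient lines. The call of HIST1H2BC was lost without replicate 1 of TIMP1 KO 2. Each clone is a single line, so a difference between clones and a difference in the level of TIMP1 mRNA cannot be told apart. TIMP1 mRNA had 1562 to 1624 normalised counts in TIMP1 KO 1 and 1136 to 1192 in TIMP1 KO 2. The paper reports frame-shift mutations in both clones by Sanger sequencing, and mRNA counts do not measure the protein.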

How the results depend on the processing

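No change of direction occurred among the called values under the alternatives run. The limits were low counts and few libraries. A minimum mean of 50 left 13 members, all of them higher in the deficient lines, in TIMP1 KO 2 against WT and in TIMP1 KO 2 against CRISPR Control. A log2 fold change of at least 1 left 7 members in TIMP1 KO 1 against WT, 7 in TIMP1 KO 1 against CRISPR Control and 3 in CRISPR Control against WT, and in the other lists 1 replacement histone, 0 processing factors, 0 cleavage factors, 0 chaperones, 3 S-phase genes and 7 neighbours. The 6 calls of CRISPR Control against WT became 3 with no minimum, 3 without trend, 2 with edgeR, 3 with DESeq2, 2 with only the compared lines in the fit and 4 with quantile normalization. Without HIST1H2BK the members' share of reads was 2.11 times WT in TIMP1 KO 1 and 5.31 times in TIMP1 KO 2. Leaving out each library gave 20 to 21 members between deficient and competent lines, 11 to 15 in TIMP1 KO 1 against WT, 18 to 21 in TIMP1 KO 2 against WT, 2 to 6 in CRISPR Control against WT, 13 to 16 and 21 to 21 in TIMP1 KO 1 and TIMP1 KO 2 against CRISPR Control, and 17 to 19 between the clones. The call of HIST1H2AI in TIMP1 KO 1 against WT was lost without replicate 1 of WT or replicate 2 of TIMP1 KO 1. With a replicate block the counts of called members were 21, 13, 20, 6, 15, 21 and 18 in the 7 comparisons, as without it. The numbers did not pair the libraries, since the correlation of deviations of same-numbered libraries ran from -0.13 to 0.16, 2 of 18 were above 0.1 and 4 of 12 libraries correlated best with their own number. Equal library totals moved the median of all genes in TIMP1 KO 2 against CRISPR Control from -0.01 to 0.11 and that of the members from 2.45 to 2.55. The cause of these changes was not tested beyond the fewer genes or libraries that an alternative used.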
